A study of Mus musculus with 6 samples.

Results

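Transcript levels of 10 genes that govern entry into the cell cycle were compared between mouse acute myeloid leukaemia cells that arose from LSK cells and the same disease started in granulocyte-macrophage progenitors (GMP). The genes were the D cyclins Ccnd1, Ccnd2 and Ccnd3, their kinases Cdk4 and Cdk6, the INK4 inhibitors Cdkn2a, Cdkn2b and Cdkn2c, and the CIP/KIP inhibitors Cdkn1b and Cdkn1c. They were taken by symbol from a table of read counts for 33924 genes, all 10 were found, and all 10 were among the 13406 genes with enough counts to be tested. Both groups carried MLL-AF9, a fusion oncogene delivered by a retrovirus, and differed in the cell that was transduced: LSK cells (marrow cells negative for lineage markers and positive for Sca-1 and Kit, rich in stem cells) or GMP (progenitors committed to the myeloid lineage). Transduced cells had been transplanted into C57BL/6 mice irradiated with 950 cGy that also received wild-type marrow, and leukaemia cells from the marrow of sick animals were then cultured with 20 ng/mL SCF, 10 ng/mL IL-3 and 10 ng/mL IL-6. The measured cells are therefore cultured leukaemias and not the sorted cells of origin. Each group had 3 libraries, named here by the numbers in their titles: LSK 44, LSK 45 and LSK 46, and GMP 5, GMP 11 and GMP 19. The labels name no drug treatment and do not tell whether a group's libraries stem from different transductions or animals, so p-values measure only how these libraries spread, some of which may be technical. The age of the mice is not given in the labels.

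D cyclins are made in response to growth factors. They bind and activate CDK4 and CDK6, which phosphorylate the retinoblastoma protein RB and so free E2F factors to switch on the genes of DNA replication. INK4 proteins bind CDK4 and CDK6 and block their pairing with D cyclins, while the CIP/KIP proteins p27 and p57 bind cyclin-kinase complexes, above all those with CDK2. In blood cells the D cyclins are partly interchangeable, CDK6 is the kinase best known from stem and progenitor cells, and CDK6 is a known dependency of leukaemias driven by MLL fusions.

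Levels are in CPM, the count per 1000000 counts of the library after TMM scaling, and a mean ± SD is over 3 libraries (n = 3 in both groups). Differences are log2 fold changes (LSK-derived over GMP-derived) with an approximate standard error (SE) derived from the test. Called means that edgeR's quasi-likelihood test, after Benjamini-Hochberg adjustment over all tested genes, gave p below 0.05. Total counts per library ran from 16640929 to 33885428. Kit, the SCF receptor gene, was higher in the LSK-derived libraries (183 to 207 against 96.3 to 143 CPM), as was Ly6a, which encodes Sca-1, at a low level (1.83 ± 1.03 against 0.255 ± 0.0840 CPM). Of genes that define lymphocytes, Ms4a1, Pax5, Cd3e, Ncr1 and Gzma had 0 counts in all libraries. The 9 listed T and NK cell genes summed to 12.3 to 24.7 CPM in LSK-derived and 7.90 to 14.2 CPM in GMP-derived libraries. Most of this was Thy1 (11.5 ± 5.87 against 3.11 ± 3.10 CPM) and Lck (6.50 ± 0.731 against 7.17 ± 0.217 CPM), neither called. Of the 3 tested, 1 was called higher, Klrb1c at a low level (0.734 ± 0.385 against 0.0236 ± 0.0212 CPM, edgeR adjusted p = 0.00518), and 0 lower. Over all tested genes 11.8% were called higher. Of the listed B cell genes Cd79b was the most abundant (18.1 ± 3.73 against 5.45 ± 2.07 CPM) and was called higher (edgeR adjusted p = 0.00948). Igll1 went the other way (0.259 ± 0.159 against 3.65 ± 3.58 CPM) and was called lower (edgeR adjusted p = 0.0397). The lower call was lost with no filter, with limma voom and on leaving out any library other than GMP 5. Of the 3 tested B cell genes 1 was thus called in each direction, with a median log2 fold change of -0.92, where 25.7% of all tested genes were called. The summed level of the 8 listed B cell genes was 15.1 to 22.2 CPM in LSK-derived and 4.51 to 13.9 CPM in GMP-derived libraries. The 12 erythroid and megakaryocyte genes summed to 25.5 to 203 CPM in LSK-derived and 2.17 to 13.3 CPM in GMP-derived libraries. Most of the sum was Hbb-b2 (14.0 to 104 CPM) and Itga2b (9.30 to 73.1 CPM) in LSK-derived libraries, and Itga2b (10.9 CPM) in GMP 5. Of the 6 tested genes of this list, Hbb-b2 was called higher (edgeR adjusted p = 0.00697) and 0 were lower, where 11.8% of all tested genes were called higher. DESeq2 called 3 higher and limma voom 0, and without LSK 45, 6 of 9 tested were higher. The part of these genes in the differences below was not tested. GMP 5 stood apart from the other GMP-derived libraries. Over all tested genes it differed from GMP 11 by 0.605 and from GMP 19 by 0.635 (root mean square of log2 CPM differences), where GMP 11 and GMP 19 differed by 0.453, LSK-derived libraries differed from each other by 0.383 to 0.548, and libraries of different groups by 0.963 to 1.15. Of the listed myeloid progenitor genes, GMP 5 was below GMP 11 and GMP 19 for Mpo (13.8 against 316 and 500 CPM) and Elane (65.45 against 815 and 1562 CPM). It was above both for Cd34 (272 against 66.9 and 110 CPM) and between them for Ptprc, Kit, Fcgr3 and Itgam. Of the monocyte and macrophage genes, Emr1 was higher in GMP 5 (159 against 30.0 and 79.1 CPM) and the others were lower. Their part in the differences was not tested. Several of the values below rest on GMP 5.

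Of the 10 genes, Ccnd1 and Ccnd2 were called higher and Cdk6 was called lower in the LSK-derived libraries, and 7 were not called. Over all tested genes 25.7% were called, 11.8% higher and 13.9% lower in the LSK-derived libraries, so 3 calls among 10 are near the share over all genes. Levels of the groups did not overlap for 5 of the 10 (Ccnd1, Ccnd2, Cdk4, Cdk6 and Cdkn2b), against 45.4% of all tested genes. The median log2 fold change was 0.40 over the 10 genes and 0.01 over all tested genes, and that of the 10 genes was 0.24 without GMP 5 and 0.24 without LSK 46. The size of the difference in Ccnd2 ranked 379th of 13406. Without GMP 5, which left 2 GMP-derived libraries, the called genes were Ccnd1, Ccnd2 and Cdkn2c, all higher, and Ccnd3, lower, where 25.3% of genes were called. In bulk RNA, fewer cells that express a gene and less of its RNA per cell cannot be told apart.

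**Figure D1:**
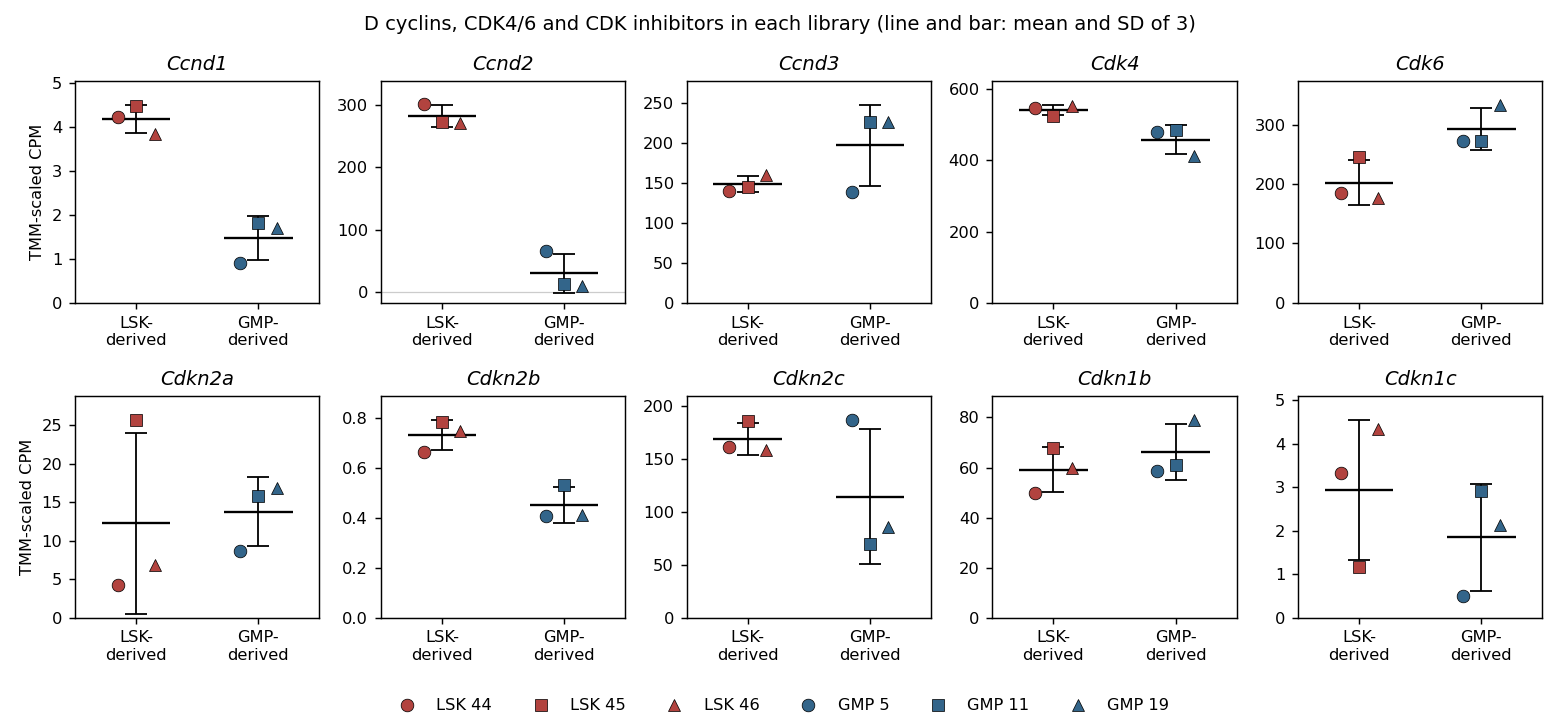
TMM-scaled CPM (y axis, linear) of each of the 10 genes in the 3 LSK-derived (left, red) and 3 GMP-derived libraries (right, blue), with the mean and SD of each group as lines and bars. Ccnd2 was between 271 and 302 CPM in LSK-derived and between 9.88 and 66.8 CPM in GMP-derived libraries, and GMP 5 (blue circle) lay away from GMP 11 and GMP 19 for Ccnd2, Ccnd3 and Cdkn2c.

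Ccnd2, the D cyclin gene known as a direct responder to cytokine signals in blood cells, showed the largest difference of the 10. It was at 302 (LSK 44), 273 (LSK 45) and 271 CPM (LSK 46), against 66.8 (GMP 5), 13.6 (GMP 11) and 9.88 CPM (GMP 19). The LSK-derived libraries were close to each other, the GMP-derived ones were spread 6.76-fold, and the groups did not overlap. Ccnd2 was called higher in the LSK-derived libraries, by 9.46-fold (log2 fold change 3.24 ± 0.76 SE, edgeR adjusted p = 0.0272). GMP 5 held 5.69 times the mean of the other GMP-derived libraries, and without it the log2 fold change was 4.58 ± 0.16 (23.9-fold, adjusted p = 0.000304). While GMP 5 was kept, the call was lost on leaving out any other library (adjusted p = 0.0712 without LSK 44, 0.0706 without LSK 45, 0.0772 without LSK 46, 0.0699 without GMP 11 and 0.0618 without GMP 19) and with no filter on low counts (0.0976), with log2 fold changes between 2.82 and 3.27.

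Of the listed mast cell, basophil and eosinophil genes, Cpa3 stood apart in GMP 5. The summed level of the 10 genes was 42.7 to 89.6 CPM in LSK-derived libraries and 109, 18.3 and 16.0 CPM in GMP 5, GMP 11 and GMP 19. Most of the sum in GMP 5 came from Cpa3, the mast cell carboxypeptidase gene, at 88.5 CPM, where the other libraries of both groups had at most 2.87 CPM. The basophil gene Mcpt8 (14.6, 13.9 and 10.9 CPM in GMP 5, GMP 11 and GMP 19) and the IgE receptor gene Ms4a2 (4.22, 3.56 and 3.55 CPM) were at similar levels in the GMP-derived libraries. Of the 5 tested genes of this list, 3 were called higher in the LSK-derived libraries and 0 lower, where 11.8% of all tested genes were called higher. These were Mcpt8 (30.6 ± 1.13 against 13.1 ± 1.96 CPM, edgeR adjusted p = 0.00153) and the eosinophil genes Epx (11.8 ± 9.76 against 0.0273 ± 0.0473 CPM, 0.00566) and Prg2 (16.6 ± 12.7 against 0.653 ± 0.617 CPM, 0.0186). Without LSK 44, LSK 46 or GMP 19 the number called higher was 2. Prss34, Cma1, Mcpt4, Tpsb2 and Fcer1a, which mark mature mast cells and basophils, had 0 counts in all GMP-derived libraries and in LSK 45. In LSK 44 and LSK 46, Prss34 had 2 and 8 counts, Cma1 2 and 12, Tpsb2 2 and 4, Fcer1a 0 and 2, and Mcpt4 0 in both. The summed level of the 9 listed neutrophil genes was 48.0 to 179 CPM in LSK-derived libraries and 18.3, 87.4 and 582 CPM in GMP 5, GMP 11 and GMP 19. Most of the sum in LSK-derived libraries was Mmp8, a collagenase gene (40.9 to 173 CPM, against 1.76 to 29.8 CPM in GMP-derived libraries). Of the 6 tested neutrophil genes, Ngp and S100a9 were called lower in the LSK-derived libraries (edgeR adjusted p = 0.0490 and 0.0476). Over all tested genes 13.9% were called lower. GMP 19 held 130 CPM of Ngp and 195 CPM of S100a9, against at most 20.1 CPM in the other libraries. With no filter or with limma voom, 0 were called lower, and DESeq2 called 4 lower and 1 higher. The number called lower was also 0 without LSK 44, LSK 45, LSK 46, GMP 11 or GMP 19, and 6 without GMP 5. The median log2 fold change was -3.81, and ran from -6.26 without LSK 44 to -1.82 without GMP 19. The part of these genes' cells in the Ccnd2, Ccnd3 and Cdkn2c values of GMP 5 was not tested.

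Ccnd3, the D cyclin gene needed for expansion of early lymphocytes and widely expressed in blood cells, was on average lower in the LSK-derived libraries, with a call that depended on GMP 5. It was at 140 (LSK 44), 145 (LSK 45) and 160 CPM (LSK 46), against 138 (GMP 5), 226 (GMP 11) and 227 CPM (GMP 19). GMP 11 and GMP 19 lay above all LSK-derived libraries and GMP 5 lay just below them, so the groups overlapped. Ccnd3 was not called over the 6 libraries (log2 fold change -0.41 ± 0.19 SE, edgeR adjusted p = 0.165) and was called lower in the LSK-derived libraries without GMP 5 (-0.62 ± 0.08, adjusted p = 0.00467).

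Ccnd1, the D cyclin gene most abundant in many solid tissues, was present at a low level and was higher in LSK-derived libraries. It was at 4.23 (LSK 44), 4.47 (LSK 45) and 3.83 CPM (LSK 46), against 0.902 (GMP 5), 1.81 (GMP 11) and 1.70 CPM (GMP 19). The groups did not overlap, and these levels stood for 70 to 114 counts in an LSK-derived and 22 to 61 counts in a GMP-derived library. Ccnd1 was called, at 2.82-fold (log2 fold change 1.49 ± 0.29 SE, edgeR adjusted p = 0.0123). Among the 10 genes it alone kept its call in all 13 alternative fits, with log2 fold changes between 1.24 and 1.67 and adjusted p up to 0.0468. In the reference annotation 23.4% of its exon length is overlapped by Oraov1 on the opposite strand, which was at 18.2 ± 1.57 against 17.8 ± 2.24 CPM and was not called (adjusted p = 0.900). The strand setting of the counting is not known, so reads in that stretch may have gone to either gene.

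Per exon length, the shares of the D cyclin genes did not overlap between the groups. Divided by the length of each gene's exons, Ccnd2 gave 65.5%, 62.3% and 60.3% of the summed D cyclin level in LSK 44, LSK 45 and LSK 46, against 30.8%, 5.24% and 3.85% in GMP 5, GMP 11 and GMP 19. Ccnd3 gave 32.6%, 35.6% and 38.0% in the same LSK-derived libraries, against 68.4%, 93.4% and 94.8% in the GMP-derived ones. Ccnd2 was the leading D cyclin gene in the 3 LSK-derived libraries and Ccnd3 in the 3 GMP-derived ones, GMP 5 included. Ccnd1 gave 1.86% ± 0.172 in LSK-derived and 1.18% ± 0.308 in GMP-derived libraries. The mean share of Ccnd2 was 49.4 percentage points higher, and that of Ccnd3 differed by -50.1 percentage points, in the LSK-derived libraries. Without GMP 5 the mean share of Ccnd2 in the GMP-derived libraries was 4.55%.

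The summed level of the 3 D cyclin genes was 49.0 (LSK 44), 46.5 (LSK 45) and 47.8 CPM per kb (LSK 46), against 23.1 (GMP 5), 27.6 (GMP 11) and 27.3 CPM per kb (GMP 19). The sum was thus 47.8 ± 1.23 CPM per kb in LSK-derived and 26.0 ± 2.52 CPM per kb in GMP-derived libraries, with no overlap and with GMP 5 close to the other GMP-derived libraries. With 3 libraries against 3, an exact two-sided permutation test cannot give less than p = 0.1, which it gave for the sum and for each of the shares (adjusted p = 0.12 over 6 such measures). The shares depend on the length used: with the longest transcript in place of all exons, Ccnd2 gave 52.9% in LSK-derived and 9.56% in GMP-derived libraries.

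**Figure D2:**
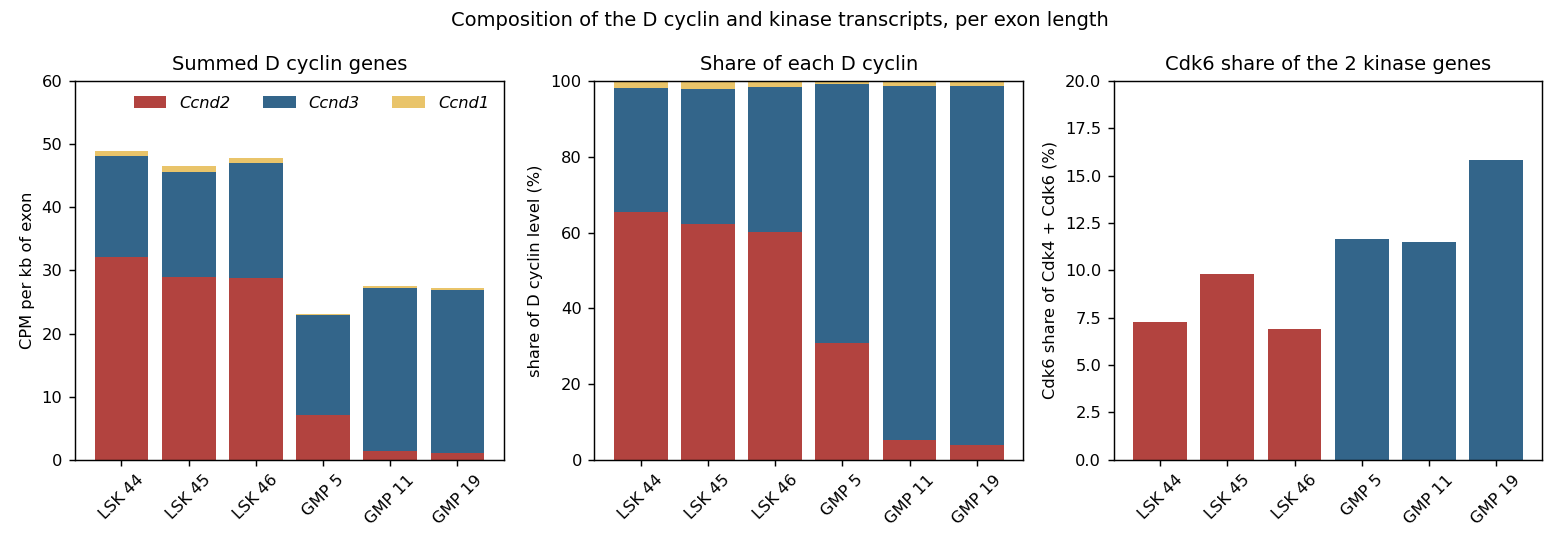
Summed D cyclin level in CPM per kb of exon (left), share of each D cyclin gene in that sum in percent (middle) and share of Cdk6 in the summed level of Cdk4 and Cdk6 in percent (right), 1 bar per library, LSK-derived before GMP-derived. Ccnd2 made up 60.3% to 65.5% of the sum in LSK-derived libraries and 3.85% to 30.8% in GMP-derived ones.

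Of the kinase genes, Cdk6 was called lower in the LSK-derived libraries and Cdk4, on average higher, did not pass. CDK6 differs from CDK4 in that it also binds chromatin as a cofactor of transcription. Cdk6 was at 184 (LSK 44), 246 (LSK 45) and 176 CPM (LSK 46), against 272 (GMP 5), 272 (GMP 11) and 334 CPM (GMP 19). LSK 45 was the highest of its group and still below the GMP-derived libraries. Cdk6 was called lower in the LSK-derived libraries, by 1.45-fold (log2 fold change -0.53 ± 0.15 SE, edgeR adjusted p = 0.0402). The call was lost in 5 of the 6 fits without a library (adjusted p = 0.134 without LSK 44, 0.128 without LSK 46, 0.0570 without GMP 5, 0.0680 without GMP 11 and 0.110 without GMP 19), and was kept without LSK 45 (0.0107).

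Cdk4, the partner kinase gene, was the most abundant of the 10. It was at 547 (LSK 44), 524 (LSK 45) and 552 CPM (LSK 46), against 479 (GMP 5), 485 (GMP 11) and 412 CPM (GMP 19). The groups did not overlap, but the difference did not pass (log2 fold change 0.24 ± 0.08 SE, edgeR adjusted p = 0.0681). It passed with DESeq2 (adjusted p = 0.0216) and with limma voom and sample weights (0.0462). Per exon length, Cdk6 gave 7.26%, 9.82% and 6.91% of the summed level of both kinase genes in LSK 44, LSK 45 and LSK 46, against 11.7%, 11.5% and 15.8% in GMP 5, GMP 11 and GMP 19 (exact permutation p = 0.1). These shares did not overlap, and Cdk4 gave the larger part of the sum in all 6 libraries. With no correction for length the mean share of Cdk6 was 27.1% in LSK-derived and 39.0% in GMP-derived libraries. Tspan31 on the opposite strand overlaps 19.7% of the exon length of Cdk4 in the reference annotation, and was at 44.6 ± 3.38 against 47.5 ± 3.99 CPM.

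Start regions of the kinase genes and of Ccnd3 are shown because their log2 fold changes had different signs although the genes act together. Human CDK4 is a textbook target of MYC, which binds the E-box CACGTG, and human cyclin D1 and cyclin A promoters are known for cAMP response elements, here searched by the core TGACGT (reverse complement ACGTCA). Of the 10 genes, 7 were matched in the RefSeq promoter table (GRCm38.p6, 250 bases before to 50 after the start), all but Ccnd1, Ccnd2 and Cdkn1c. The build of these sequences is not mm9, the one named in the submitters' processing notes. Both motifs were searched on both strands, and each sequence printed holds only 1 of them. Capitals mark CACGTG in Cdk4 and Cdk6 and TGACGT in Ccnd3, whose downstream start is shown.
Cdk4, chr10:127063285-127063584, plus strand: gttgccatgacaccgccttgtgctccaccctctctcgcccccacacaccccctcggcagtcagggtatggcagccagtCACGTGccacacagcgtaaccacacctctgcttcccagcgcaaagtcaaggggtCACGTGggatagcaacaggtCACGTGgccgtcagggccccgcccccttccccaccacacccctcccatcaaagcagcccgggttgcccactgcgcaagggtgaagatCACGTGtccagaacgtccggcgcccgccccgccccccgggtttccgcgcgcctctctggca
Cdk6, chr5:3343643-3343942, plus strand: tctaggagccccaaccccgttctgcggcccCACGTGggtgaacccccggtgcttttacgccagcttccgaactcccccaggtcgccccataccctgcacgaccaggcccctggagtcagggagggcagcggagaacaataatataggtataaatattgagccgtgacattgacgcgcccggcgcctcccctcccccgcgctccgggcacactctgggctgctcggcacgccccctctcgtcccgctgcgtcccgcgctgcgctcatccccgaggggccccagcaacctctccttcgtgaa
Ccnd3, chr17:47593217-47593516, plus strand: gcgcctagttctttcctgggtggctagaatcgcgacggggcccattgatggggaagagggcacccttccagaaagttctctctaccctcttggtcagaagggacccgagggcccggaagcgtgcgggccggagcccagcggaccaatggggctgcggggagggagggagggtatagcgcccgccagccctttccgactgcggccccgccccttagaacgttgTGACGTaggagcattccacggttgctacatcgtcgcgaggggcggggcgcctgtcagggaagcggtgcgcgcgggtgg
The Cdk4 window held CACGTG 4 times and the Cdk6 window once. Among 32851 windows of the same length in the table, 7.15% held CACGTG and 7.51% held TGACGT. Of the 10 windows of these genes, 3 held CACGTG (the other is a second start of Cdkn2c) and 2 held TGACGT (the other is Cdkn2b). A match describes the letters of the window, not binding.

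Of the INK4 inhibitor genes, Cdkn2c was by far the most abundant. It encodes p18, an inhibitor known to restrain the renewal of haematopoietic stem cells in mice. It was at 162 (LSK 44), 186 (LSK 45) and 159 CPM (LSK 46), against 187 (GMP 5), 70.1 (GMP 11) and 85.8 CPM (GMP 19). GMP 5 lay above the LSK-derived libraries and the other GMP-derived libraries lay below them. Over the 6 libraries Cdkn2c was not called (log2 fold change 0.57 ± 0.36 SE, edgeR adjusted p = 0.295), and without GMP 5 it was called higher in the LSK-derived libraries, by 2.16-fold (1.11 ± 0.12, adjusted p = 0.00366). The log2 fold change was 0.31 without GMP 11 and 0.40 without GMP 19.

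Cdkn2a gave the widest spread of the 10 genes within the LSK-derived group. The gene encodes p16, an INK4 inhibitor, and in another reading frame p19ARF, which protects p53 from MDM2, and in the reference annotation its transcripts share 575 of 1172 exon bases, so that one count stands for both. Cdkn2a was at 4.23 (LSK 44), 25.7 (LSK 45) and 6.79 CPM (LSK 46), against 8.65 (GMP 5), 15.8 (GMP 11) and 16.9 CPM (GMP 19). LSK 45 was above all other libraries and LSK 44 and LSK 46 were below them, a 6.07-fold spread within the LSK-derived group. The groups did not differ beyond this spread (log2 fold change -0.16 ± 0.67 SE, edgeR adjusted p = 0.880). The direction depended on single libraries: the log2 fold change was -1.31 without LSK 45 (adjusted p = 0.0512), -0.41 without GMP 5, -0.055 without GMP 11, 0.24 without LSK 44, 0.13 without LSK 46 and 0.0082 without GMP 19.

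Cdkn2b, which encodes p15 and lies beside Cdkn2a, was close to the limit of detection, with 11 to 20 counts in an LSK-derived and 10 to 18 counts in a GMP-derived library. It was at 0.665 (LSK 44), 0.785 (LSK 45) and 0.750 CPM (LSK 46), against 0.410 (GMP 5), 0.534 (GMP 11) and 0.410 CPM (GMP 19). The groups did not overlap, but the difference did not pass (log2 fold change 0.70 ± 0.27 SE, edgeR adjusted p = 0.104). Exact 95% counting intervals of the pooled counts, without TMM scaling, were 0.548 to 0.980 CPM in the LSK-derived and 0.328 to 0.616 CPM in the GMP-derived group, and cover counting error only. The summed level of the 3 INK4 genes was 73.9 ± 15.5 CPM per kb in LSK-derived and 54.7 ± 20.0 CPM per kb in GMP-derived libraries, with overlap (exact permutation p = 0.3). That difference of 19.2 CPM per kb was 10.3 without LSK 45, 30.6 without GMP 5 and 11.9 without GMP 11.

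The CIP/KIP genes Cdkn1b and Cdkn1c did not pass. Cdkn1b, which encodes p27, was at 49.8 (LSK 44), 68.0 (LSK 45) and 59.8 CPM (LSK 46), against 58.8 (GMP 5), 61.0 (GMP 11) and 79.1 CPM (GMP 19), with overlap (log2 fold change -0.16 ± 0.15 SE, edgeR adjusted p = 0.476). Its log2 fold change was -0.052 without LSK 44, -0.27 without LSK 45, -0.25 without GMP 5 and -0.015 without GMP 19. Cdkn1c, an imprinted gene that encodes p57 and is known from quiescent stem cells, was low and uneven, at 3.33 (LSK 44), 1.18 (LSK 45) and 4.33 CPM (LSK 46), against 0.492 (GMP 5), 2.91 (GMP 11) and 2.14 CPM (GMP 19). Its lowest library in each group, LSK 45 and GMP 5, was several times below the highest, with spreads of 3.68-fold and 5.92-fold (log2 fold change 0.65 ± 0.69 SE, adjusted p = 0.529). The log2 fold change of Cdkn1c was 0.25 without LSK 46, 0.21 without GMP 5, 1.04 without LSK 45 and 1.13 without GMP 11.

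**Figure D3:**
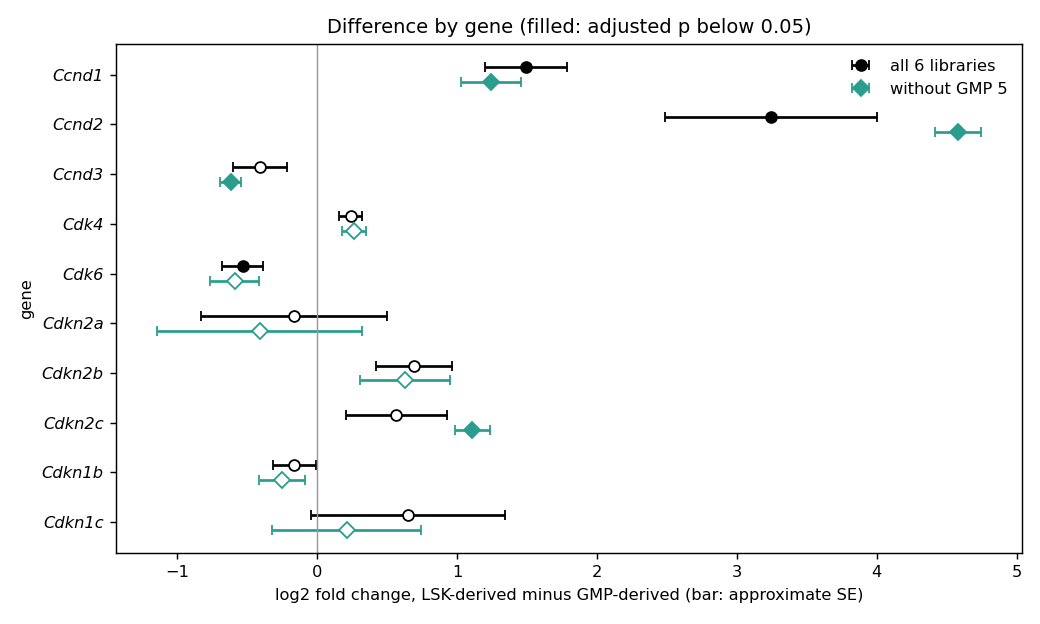
Log2 fold change, LSK-derived minus GMP-derived, of each of the 10 genes (x axis, bars: approximate SE) over the 6 libraries (black circles) and without GMP 5 (green diamonds), filled where edgeR's adjusted p was below 0.05. Leaving out GMP 5 moved Ccnd2 from 3.24 to 4.58 and Cdkn2c from 0.57 to 1.11, and the calls of Ccnd3 and Cdkn2c appeared while that of Cdk6 was lost.

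Per exon length, the order of levels was alike at the top in both groups. Cdk4 was first, at 167 ± 4.56 CPM per kb in LSK-derived and 141 ± 12.5 CPM per kb in GMP-derived libraries, and Cdkn2c was second, at 62.9 ± 5.53 and 42.6 ± 23.7 CPM per kb. In LSK-derived libraries Ccnd2 ranked next, at 30.0 ± 1.84 CPM per kb, apart from both neighbours, followed by Ccnd3, Cdk6, Cdkn1b and Cdkn2a, whose neighbours in this order overlapped. In GMP-derived libraries Ccnd3 (22.5 ± 5.79 CPM per kb) and Cdk6 (20.9 ± 2.53 CPM per kb) ranked next and overlapped, Cdkn1b and Cdkn2a followed and overlapped, and Ccnd2 had rank 7, at 3.20 ± 3.38 CPM per kb (7.10 in GMP 5, 1.44 in GMP 11 and 1.05 in GMP 19), overlapping Cdkn1c below it. Cdkn1c, Ccnd1 and Cdkn2b were the lowest 3 in both groups.

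By a rule on the 3 called genes, the tested genes with the highest Pearson's r over the 6 libraries were looked up. The r was of log2 CPM with 0.1 added, among 9843 genes of at least 5 CPM on average. It does not depend on the level of a gene or the size of its difference. Above 0.99 it was for 17 genes with Ccnd1, 17 with Ccnd2 and 15 with Cdk6. The 6 points fall into the 2 groups, share libraries and depth, and give a description only. For Ccnd2 the genes with the highest r were Ccar1 (r = 0.998), Ptch1 (0.998) and Ahsa2 (0.997). Ccar1 was at 275 ± 1.20 against 242 ± 12.2 CPM and was not called (edgeR adjusted p = 0.0707). Ptch1, which encodes the Hedgehog receptor, was at 45.4 (LSK 44), 41.7 (LSK 45) and 43.4 CPM (LSK 46), against 21.7 (GMP 5), 12.4 (GMP 11) and 11.1 CPM (GMP 19), with GMP 5 the highest of its group as for Ccnd2. For Ccnd1 they were P2ry14, Rasgrp2 and Ubqln2 (r = 0.995, 0.995 and 0.994), and for Cdk6 they were Slc25a35, Sepp1 and Tmem38b (r = 0.998, 0.998 and 0.995).

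The RB, E2F and other pathway lists, which cover genes upstream as well as downstream of the kinases, held 69 tested genes. Of these, 18 were called (26.1%, against 25.7% of all tested genes). Rb1, which encodes RB itself, was called lower (43.0 ± 1.86 against 60.4 ± 6.02 CPM, log2 fold change -0.49, edgeR adjusted p = 0.0114). Its relatives Rbl1 (148 ± 2.10 against 155 ± 4.42 CPM) and Rbl2 (81.4 ± 10.3 against 94.8 ± 9.95 CPM) were not called. Of 10 E2F and DP genes, 2 were higher, 3 were lower and 5 did not pass, against 11.8% higher and 13.9% lower over all tested genes, with a median log2 fold change of -0.11 (-0.06 without GMP 5 and -0.07 without LSK 45). E2f2, an activator E2F, was at 33.5 (LSK 44), 31.5 (LSK 45) and 32.4 CPM (LSK 46), against 60.7 (GMP 5), 61.8 (GMP 11) and 89.6 CPM (GMP 19) (log2 fold change -1.12, adjusted p = 0.00400). The other activators differed in direction, E2f1 being lower (54.7 ± 2.15 against 70.3 ± 5.13 CPM, adjusted p = 0.0177) and E2f3 higher (67.1 ± 4.35 against 53.2 ± 1.45 CPM, adjusted p = 0.0187). E2f2 kept its call in each fit without a library. Rb1 lost its call without LSK 46 (adjusted p = 0.0526), E2f1 without LSK 46, GMP 11 or GMP 19 (up to 0.0728), and E2f3 without LSK 44, LSK 46 or GMP 19 (up to 0.0773). Without LSK 44, LSK 46 or GMP 19 the number of higher E2F and DP genes was 0, and without LSK 46 or GMP 11 the number of lower ones was 1.

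Of 5 tested genes in the list of cyclins E and A with CDK2, which act after the D cyclins, 2 were lower in the LSK-derived libraries and 3 did not pass. The list also held Cdc25a, neither a cyclin nor a kinase gene, which was not called (120 ± 14.5 against 126 ± 14.3 CPM). Over all tested genes 13.9% were called lower. The number in this list was 1 with upper-quartile scaling or with no filter. Ccne1 was at 37.4 ± 7.67 against 56.6 ± 7.73 CPM (edgeR adjusted p = 0.0391) and Cdk2 at 152 ± 4.72 against 177 ± 7.90 CPM (adjusted p = 0.0411). Ccne1 lost its call without LSK 45, LSK 46, GMP 5 or GMP 11 (up to 0.128) and Cdk2 lost it whichever library was left out (up to 0.143). Of 22 tested G1/S genes that E2F switches on, 2 were higher, 19 did not pass and 1 was lower, where 25.7% of all tested genes were called. Their median log2 fold change was 0.13 (0.08 without LSK 44, GMP 5 or GMP 19). Tk1, which serves nucleotide supply, was among the higher ones (138 ± 6.79 against 104 ± 16.7 CPM), and the lower one was Cdc45, a helicase gene (148 ± 7.35 against 183 ± 9.74 CPM). On leaving out a library, Tk1 lost its call in 4 and Cdc45 in 3 of the 6 fits (with p as high as 0.143 after adjustment). The list had 0 genes called higher without LSK 44, LSK 46 or GMP 19, and 0 called lower without LSK 45, LSK 46 or GMP 11. The summed level of the 22 genes was 5537 to 6212 CPM in LSK-derived and 5315 to 5851 CPM in GMP-derived libraries, with overlap.

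Cdkn1a, which encodes the CIP/KIP inhibitor p21, was called lower (58.7 ± 8.90 against 90.4 ± 8.42 CPM, edgeR adjusted p = 0.0136), a call lost without LSK 44 (0.0592), and the INK4 gene Cdkn2d was low and not called (2.29 ± 0.470 against 2.65 ± 0.691 CPM). Of 10 genes for the turnover of p27 and D cyclins, 2 were higher and 8 did not pass, where 11.8% of all tested genes were called higher. Both higher genes serve the SCF ligase that marks p27 for destruction: Skp1a was at 327 (LSK 44), 328 (LSK 45) and 325 CPM (LSK 46), against 266 (GMP 5), 242 (GMP 11) and 235 CPM (GMP 19) (log2 fold change 0.40, adjusted p = 0.00749), and Cks1b was at 141 ± 7.30 against 114 ± 4.05 CPM (adjusted p = 0.0173; up to 0.0685 without LSK 44, LSK 46 or GMP 19). Skp2, the subunit that binds p27, was at 64.8 ± 3.89 and 65.4 ± 1.74 CPM and was not called (adjusted p = 0.913). Cul1 and Rbx1 of the same list were not called either (edgeR adjusted p = 0.682 and 0.810). In this list 1 gene was higher without LSK 44, LSK 46 or GMP 19. With DESeq2, with limma voom and sample weights, and without GMP 5, 1 gene was lower. Of the 3 genes of the CDK-activating kinase, edgeR, DESeq2 and limma voom called 0, and 1 of them, Mnat1, had an unadjusted p below 0.05 in edgeR (54.9 ± 3.16 against 48.0 ± 1.44 CPM). Without GMP 5, 1 of the 3 was called higher. The others were Cdk7 and Ccnh, Cdk7 being at 83.6 ± 2.88 against 72.8 ± 8.83 CPM and Ccnh at 57.5 ± 6.10 against 55.9 ± 5.29 CPM.

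Of 14 regulators of the INK4-ARF locus, 3 were called higher and 1 lower, and 10 did not pass, a share of calls near the 25.7% over all tested genes, with a median log2 fold change of 0.16. Id1, an inhibitor of E proteins known to restrain p16 expression, was at 43.8 ± 1.15 against 25.4 ± 3.75 CPM, with no overlap (log2 fold change 0.79, edgeR adjusted p = 0.00467). Of the polycomb repressor subunits, Suz12 was lower (356 ± 11.5 against 447 ± 14.5 CPM, adjusted p = 0.0104) and Eed higher (85.9 ± 4.51 against 68.9 ± 3.73 CPM, adjusted p = 0.0216). Id1 and Suz12 kept their calls in each fit without a library, and Eed lost it without LSK 44, LSK 46 or GMP 19 (up to 0.0855). Of the 18 genes called over these lists, 4 (E2f2, Skp1a, Suz12 and Id1) kept the call in all fits without a library. Without LSK 44, LSK 46 or GMP 19, 1 regulator of the locus was higher.

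**Figure D4:**
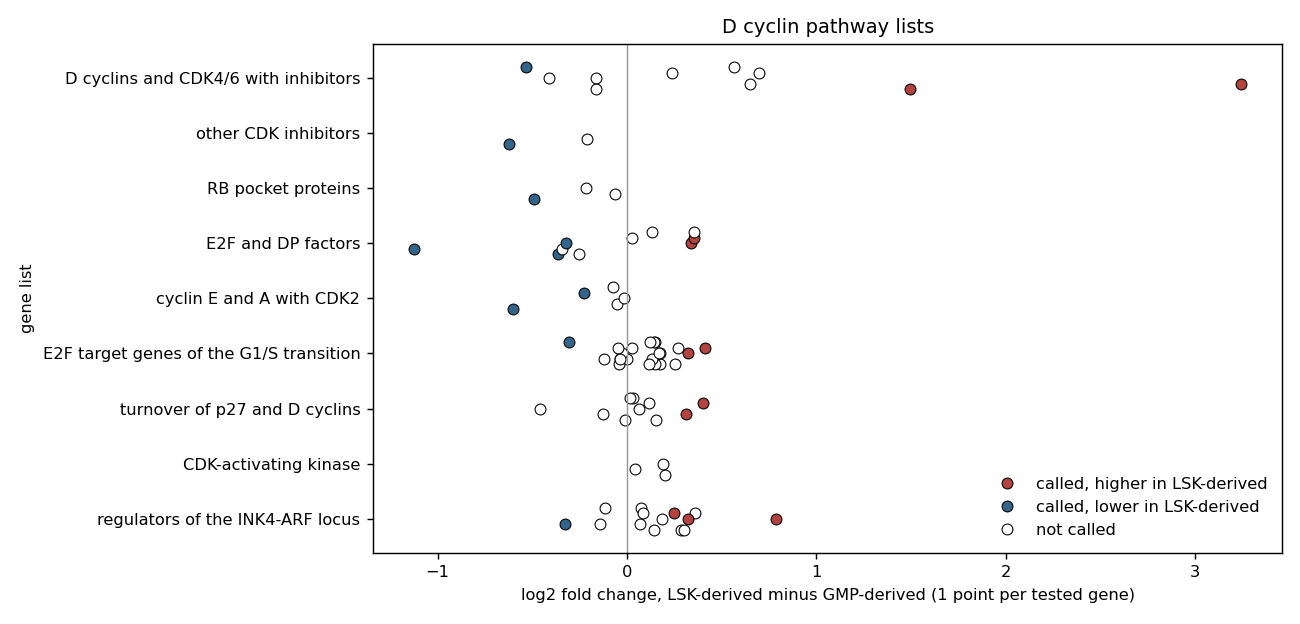
Log2 fold change, LSK-derived minus GMP-derived (x axis), of each tested gene of the D cyclin pathway, 1 point per gene and 1 row per list, filled red where called higher and blue where called lower in the LSK-derived libraries. Ccnd2 at 3.24 and Ccnd1 at 1.49 lie to the right of all other genes, and E2f2 at -1.12 lies to the left of them.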

How the data were processed

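RNA was isolated with TRIzol and sequenced from TruSeq RNA libraries, per the labels' protocols. The authors deposited raw read counts per gene symbol, 1 column per library, with no normalization. The submitters' processing notes name mm9 as the build and list HTSeq 0.6.1, STAR 2.4 and DESeq2 without a role. Annotation and strand setting: not given in the sources used here.

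Genes with low counts were left out (filterByExpr), TMM factors scaled the libraries, and tests were run with glmQLFit (robust) and glmQLFTest of edgeR 4.0.16 in R 4.3.3, LSK-derived against GMP-derived, with no covariate. CPM are counts over the library's tested total times its TMM factor. The approximate SE is the absolute log2 fold change over the square root of the F statistic. Exon lengths and overlaps came from GENCODE M21 (GRCm38), used for lengths and gene order only. Alternatives used DESeq2 1.42.0 and limma 3.58.1. On simulated counts (13204 genes), edgeR recovered 69% of 100 genes changed 2-fold and 93% of 100 changed 4-fold, with 9 false calls.

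The 10 genes and the pathway lists were chosen with earlier results of these data known. All 10 are named. From each other list up to 3 called genes by smallest p were named, or, with fewer than 2 called, also the 2 most abundant. Skp2, Mnat1, Cd79b, Cpa3, Mcpt8, Ms4a2, Mmp8, Ngp, S100a9 and the lymphocyte and mast cell genes at 0 were named after their values were seen. So were Epx, Prg2, Igll1, Thy1, Lck, Klrb1c, Hbb-b2, Itga2b, Cdc25a, Cul1, Rbx1, Mpo, Elane, Cd34, Emr1, Ptprc, Fcgr3 and Itgam. 1 gene that this rule names is not reported here.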

Additional observations from a re-analysis of the deposited data

How the results depend on the processing

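The 13 alternatives were other scalings (2), no filter on low counts, no robust estimation, DESeq2, limma voom with and without sample weights, and leaving out each of the 6 libraries. The number of genes called ran from 1750 to 3467 without a library, against 3444 with all. Of the 10 genes, between 1 and 3 were called higher and between 0 and 1 lower in the LSK-derived libraries without a library, against 2 and 1, and 1 was called higher with no filter, where Ccnd2 was not called. Ccnd1, Ccnd2 and Cdk6 kept their direction in the 13 fits, and Cdkn2a, which was not called, did not keep its own. Shares and sums kept their direction with both other length settings and without each library: the difference in the Ccnd2 share ran from 43.4 to 50.8 percentage points with the other lengths. Scaling moved the median log2 fold change over all genes by at most 0.03. No paired analysis was possible because the groups share no library numbers. With 22 to 61 counts of Ccnd1 and 10 to 18 of Cdkn2b in a GMP-derived library, depth limits both. The list counts without single libraries, the values without GMP 5 and the alternatives for the other pathway genes were chosen after seeing the data.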
